A study of Mus musculus with 28 samples.

Results

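The 150 features described here are those whose read counts stood highest in splenic CD11c+ atypical B cells (ABC) of wild-type mice relative to the other 2 B-lineage subsets of the study. Each count was divided by the column total of its library and multiplied by 1000000 (CPM), and the CPM was averaged over the wild-type libraries of each subset. Features with an ABC mean between 10 and 4000 CPM were kept, which left 8625 of the 40303 features in the files, of which 32147 had a count in at least 1 library. The 150 with the highest score, (ABC mean + 1) divided by (the larger of the other 2 subset means + 1), are the members, and they are ordered and named by the rank of that score. The members were thus chosen by the wild-type values of the 3 subsets, and wild-type levels are given as a description with no test.

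The study sequenced RNA of sorted spleen B cells from female mice and asked how deletion of Xist in B cells bears on the transcriptome of B cell subsets in spontaneous lupus. Xist is the long noncoding RNA that silences one X chromosome in female cells, and antibodies against double-stranded DNA (dsDNA) are a serum marker of lupus. The wild-type (WT) mice had low dsDNA and gave 6 libraries of CD23+ B cells, 4 of CD11c+ ABC and 6 of long-lived plasma cells (LLPC). The Xist conditional knockout (cKO) mice with lupus pathology had high dsDNA and gave 3 libraries of each subset, whereas the healthy cKO mice had low dsDNA and gave 3 libraries of CD23+ B cells. ABC and LLPC of cKO mice with low dsDNA were not analysed here, so in those subsets the genotype and the dsDNA class change together and cannot be told apart. The labels describe the mice as age and sex matched; their age and strain and the driver of the deletion were not stated in the labels. The 28 libraries came from 12 animals by the animal numbers they carry, and the labels call them biological replicates.

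CD11c+ atypical B cells, also called age-associated B cells, are an antigen-experienced population that accumulates with age and in lupus, and they are known for the integrin CD11c, the transcription factor T-bet and a ready turn to antibody secretion. CD23+ B cells of the spleen are mainly resting follicular cells. Plasma cells are the antibody-secreting end of the lineage and devote much of their RNA to immunoglobulin. The feature identifiers follow the BALB/cJ strain annotation, and 0 of the 40303 matched a name in the tables used here. Whether the members hold the known ABC genes, whether the sorted subsets carry their defining markers, and the level of the deleted gene were therefore not tested, and no role or sequence can be given for a single member. At most 4 members are named by identifier and the others by rank.

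The ABC libraries held between 4963298 and 9990545 counts in WT and between 2133489 and 9101435 in cKO with high dsDNA, with replicate 2 the shallowest. The CD23+ libraries held from 6768292 to 23866710 counts, and the LLPC libraries from 4651060 to 10599602. By features detected 1 library stood apart: replicate 6 of CD23+ WT detected 29517, and the other 5 replicates detected 16913 to 18879. Replicate 6 of LLPC WT, which carries the same animal number, stood apart in another measure. Its 10 most abundant features took 27.4% of counts, against 40.5% to 50.2% in the other 5 LLPC WT replicates. In the LLPC libraries the 10 most abundant features took 27.4% to 51.3% of all counts, against 12.6% to 18.4% in ABC. A CPM on plain totals is lowered for every other feature of a library by such features: in cKO with high dsDNA, the median of all tested features lay 0.90 higher in ABC than in LLPC on the log2(CPM + 1) scale, and 0.08 higher once the totals were scaled by the trimmed mean of M-values (TMM). Between ABC and CD23+ B cells the same medians were 0.04 and 0.00.

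The members were chosen for low levels outside ABC, and the selection left a wide range within them. Scores ran from 2.85 to 44.9 with a median of 4.92. At the edge, rank 150 scored 2.85 with WT means of 30.2 CPM in ABC, 9.13 in CD23+ B cells and 9.95 in LLPC, and the next feature, just outside, scored 2.82 with 137.2, 18.1 and 48.0 CPM. The higher of the other subsets was CD23+ B cells for 74 members and LLPC for 76. In ABC WT, 73 members had a mean of 10 to 30 CPM, 53 of 30 to 100 CPM and 24 above 100 CPM.

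Added together, the members took a small part of every library. They made up 1.33% ± 0.154 (SD, n = 4) of the counts in ABC WT, against 0.234% ± 0.0208 (n = 6) in CD23+ WT and 0.205% ± 0.0443 (n = 6) in LLPC WT. In cKO with high dsDNA their share was 1.62% ± 0.155 (n = 3) in ABC, 0.221% ± 0.0104 (n = 3) in CD23+ B cells and 0.204% ± 0.0510 (n = 3) in LLPC, and in CD23+ B cells of cKO with low dsDNA it was 0.223% ± 0.0199 (n = 3). The lowest ABC library of either genotype stood at 1.15% and the highest library of any other subset at 0.267%. Within ABC, replicates 1 to 4 of WT had shares of 1.33%, 1.53%, 1.31% and 1.15%, and those of cKO had 1.78%, 1.47% and 1.61%, so the genotypes overlapped. These are bulk samples, in which fewer cells of a type and less RNA per cell cannot be told apart.

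**Figure D1:**
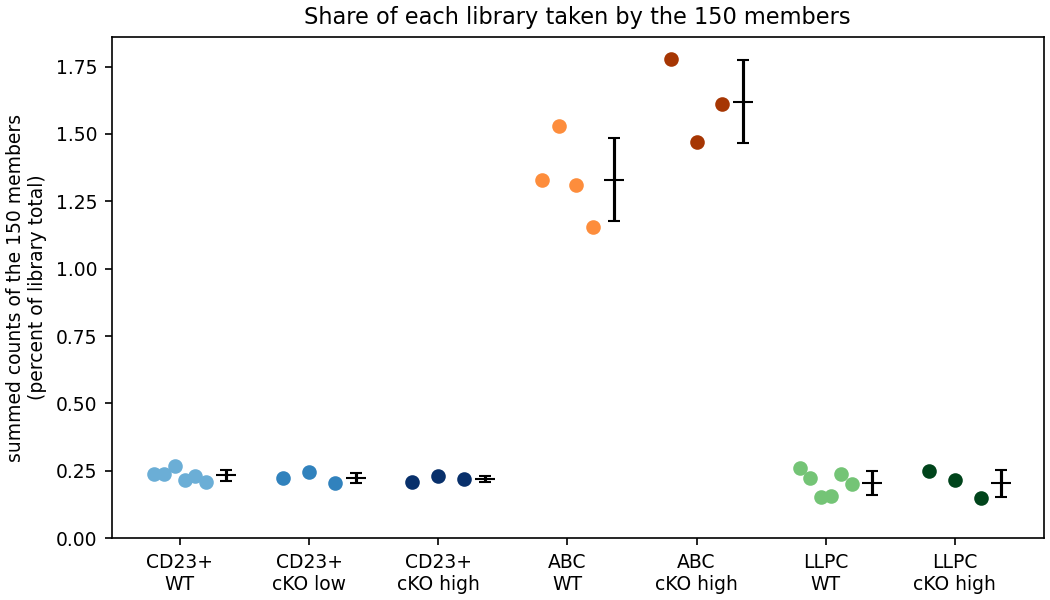
Share of each library's counts taken by the 150 members, in percent, with one point per library and the mean and SD of each group. The 7 ABC libraries lie at or above 1.15% and all 21 others at or below 0.267%.

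The share leaned on 1 member. Rank 96 had 2389 ± 798 CPM in ABC WT (SD, n = 4) and made up 14.1% to 22.4% of the member counts there, and in LLPC WT it made up 11.5% to 44.2%. Without it the members took 0.985% to 1.19% of an ABC WT library and 1.19% to 1.37% of an ABC cKO library. The member in the middle of the list is less affected by single features: the median member stood at 29.6 to 33.4 CPM in the ABC WT libraries, 29.998 to 39.4 in ABC cKO, 2.21 to 3.59 in CD23+ WT and 2.26 to 3.69 in LLPC WT. Every member had counts in all 7 ABC libraries, whereas 0 to 13 members were at 0 in a CD23+ WT library and 3 to 14 in an LLPC WT library.

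**Figure D2:**
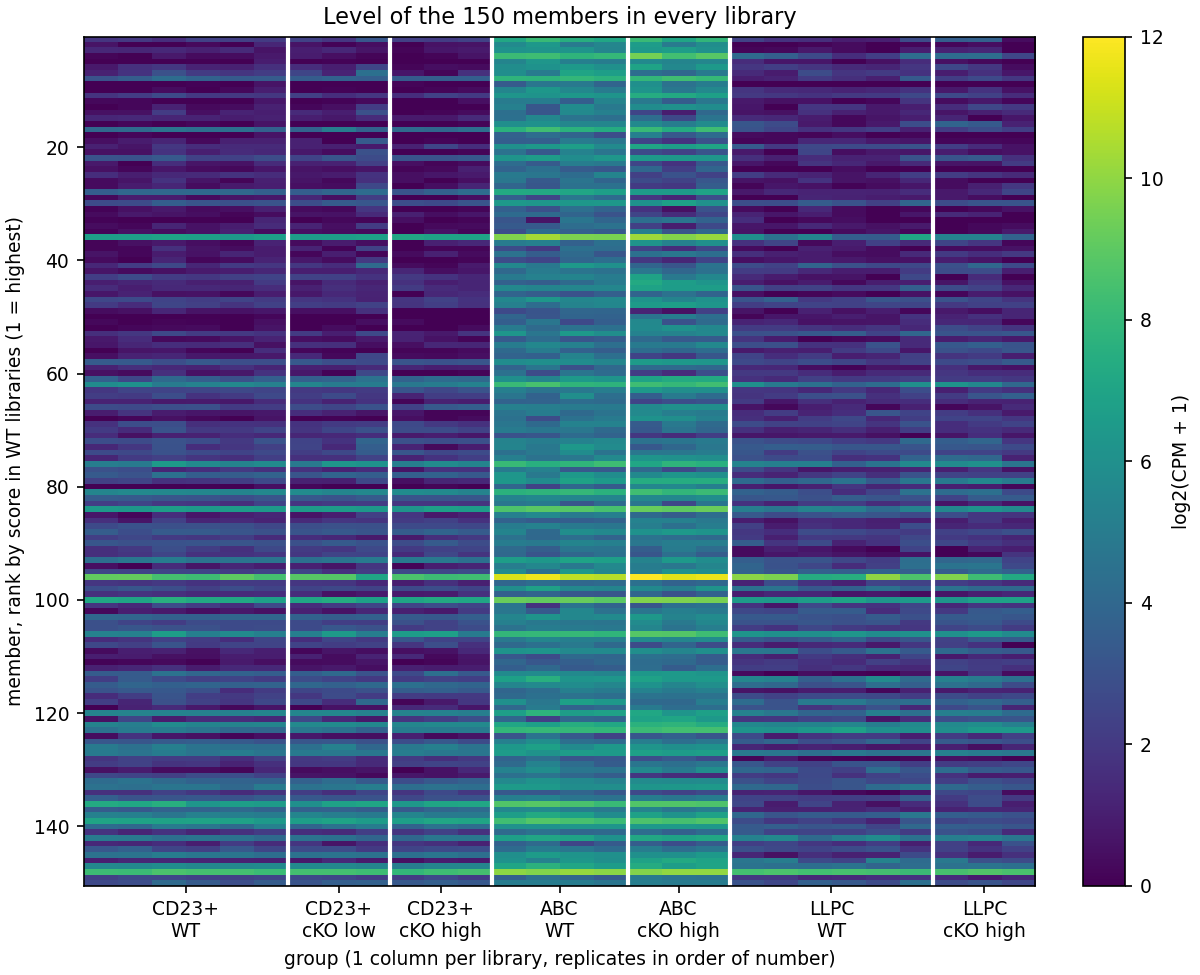
Level of the 150 members (one line each, ordered by rank) in the 28 libraries (columns, by group), as log2(CPM + 1). The ABC columns of both genotypes are high along the whole list, and in the other columns most members are low.

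The 10 members with the highest scores were low outside ABC. Rank 1 had 145.7, 270.6, 180.3 and 138.4 CPM in the ABC WT libraries and 276.0, 130.3 and 235.5 in ABC cKO, whereas CD23+ WT ran from 2.02 to 4.06 CPM (median 3.13) and LLPC WT from 0.943 to 5.86 (median 2.20). Its ABC libraries thus overlapped between genotypes and lay above 130 CPM. In LLPC of cKO it read 10.9, 12.2 and 0.338 CPM, so a single library was low.

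Rank 4 was high in ABC of both genotypes and kept some signal in plasma cells. Its ABC WT libraries held 290.8, 313.6, 222.6 and 256.5 CPM and its ABC cKO libraries 730.1, 329.5 and 472.6, each above every WT library. In CD23+ WT it ranged from 0 to 0.785 CPM (median 0.303), and in LLPC WT from 1.98 to 18.4 (median 8.42). This rise of 0.92 ± 0.240 (SE) on the log2 scale missed the threshold (adjusted p = 0.142 by edgeR's quasi-likelihood test with Benjamini-Hochberg adjustment over all tested features).

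Rank 8 was the steadiest of the 10 with 225.2, 218.7, 247.6 and 206.1 CPM in ABC WT and 241.9, 316.4 and 261.8 in ABC cKO. Its level in CD23+ B cells was 7.40 to 18.2 CPM in WT (median 10.3), and 10.1, 10.5 and 10.96 in cKO with high dsDNA. Rank 9 had 9.82, 25.6, 27.6 and 13.5 CPM in ABC WT and 62.2, 22.03 and 31.4 in ABC cKO, and it had 0 counts in all 9 LLPC libraries. Rank 2 was likewise near 0 outside ABC: ABC WT had 52.4, 82.7, 31.03 and 44.6 CPM and ABC cKO 97.0, 30.5 and 57.1, against at most 1.41 CPM in CD23+ WT and 0.283 in LLPC WT.

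Rank 7 differed from the others of the top 10 in its ABC libraries. Its ABC WT libraries read 58.7, 31.2, 126.5 and 105.9 CPM, and its ABC cKO libraries 18.9, 15.5 and 28.4, all below every WT library. In CD23+ B cells of cKO with low dsDNA it read 4.71, 1.29 and 20.9 CPM, so replicate 3 was several times the other 2. Ranks 1 and 6 were also at least 2-fold higher (CPM + 1) in that replicate than in the mean of the other 2. For rank 7 the difference between ABC genotypes was a log2 fold change of -1.92 ± 0.604 SE. It did not pass the edgeR test (Benjamini-Hochberg adjusted p = 0.297). The remaining 4 of the 10 overlapped between genotypes in ABC. Rank 3 spanned 42.5 to 74.2 CPM in WT and 66.1 to 101.7 in cKO, and rank 5 spanned 31.8 to 78.7 and 42.2 to 50.2. Rank 6 spanned 58.3 to 85.8 CPM in WT and 48.3 to 123.7 in cKO, and rank 10 spanned 31.3 to 80.7 and 26.7 to 72.3.

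Members varied more between ABC WT libraries than most features did. The coefficient of variation over the 4 libraries had a median of 32.4% over the members (range 3.83% to 85.1%), against 14.3% over all features within the level limits. For 79 members (52.7%) the highest library exceeded the lowest by more than 2-fold, against 9.17% of the features within the limits, and for 19 of them by more than 4-fold. Replicates 2 and 3 held the highest value for 65 and 51 members, and replicates 2 and 4 the lowest for 53 and 48. The same libraries entered the score, so this spread is a description.

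The cKO libraries with high dsDNA took no part in choosing the members, and in them the members again stood higher in ABC. Against CD23+ B cells, 142 of the 145 members that passed the filter on low counts were called higher in ABC and 0 lower, at an adjusted p under 0.05 by edgeR's quasi-likelihood test with Benjamini-Hochberg adjustment; of all 12359 tested features, 19% were called higher and 15.2% lower. Against LLPC, 120 were called higher and 0 lower, where 24.9% of tested features were called higher and 25.7% lower. The median log2 fold change of the tested members was 3.35 against CD23+ B cells (quartiles 2.42 and 5.17) and 2.17 against LLPC (1.07 and 3.65), beside 0.02 and 0.03 over all tested features. A member that passed the filter only through ABC had to be higher there. Such members are within these counts and medians, and their number was not determined. The counts and medians therefore describe the members and do not test them as a set. In the fits of a single subset with its WT libraries, 120 members passed in CD23+ B cells and 110 in LLPC. The 5 members that did not pass in cKO were ranks 29, 31, 34, 40 and 49. Both comparisons use the same 3 ABC libraries.

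On plain CPM over all 150 members, every ABC library lay above every CD23+ library for 148 (27.2% of tested features), above every LLPC library for 136 (68.8%), and above both for 135 (18.9%). The LLPC count depends on the scaling: with TMM-scaled totals 122 members lay above every LLPC library, against 32.0% of tested features. On plain CPM the ABC mean was the highest of the 3 subsets for all 150, and with TMM-scaled totals it was below the LLPC mean for 5. The median fold of mean CPM was 10.9 over CD23+ B cells and 8.94 over LLPC, with quartiles of 5.51 and 40.8 and of 4.16 and 24.6. A group with 0 counts in all its libraries was set to a floor of 3 counts over the group, so that its fold is a lower bound. The WT libraries that chose the members gave median folds of 11.2 and 10.1.

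**Figure D3:**
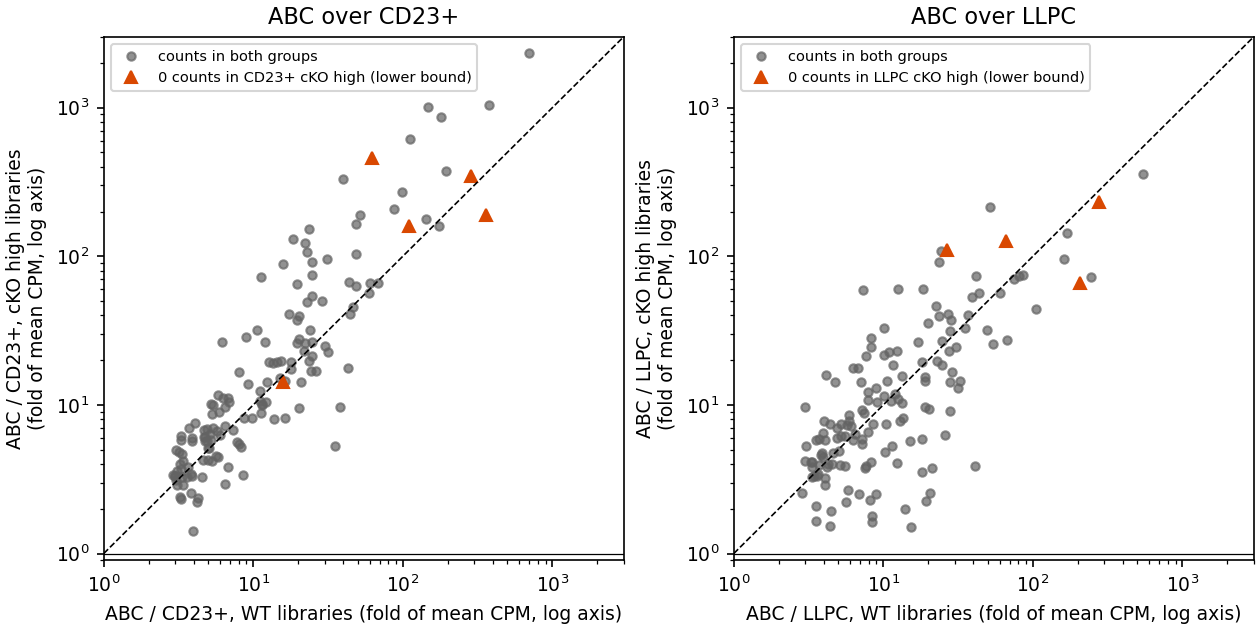
Fold of mean CPM of ABC over CD23+ B cells and over LLPC for each member, in WT (horizontal, the libraries that chose the members) and in cKO with high dsDNA (vertical), on log axes. Triangles are lower bounds for members at 0 in the other subset, the dashed line marks equal folds, and all points lie above 1 on both axes.

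Members without counts in the lower group were among those with the largest fitted changes. In cKO with high dsDNA, 5 members (ranks 5, 13, 18, 49 and 50) had 0 counts in all 3 CD23+ libraries, and 4 (ranks 9, 18, 24 and 33) in all 3 LLPC libraries. The 5 largest fitted changes against CD23+ B cells belonged to ranks 4, 5, 13, 18 and 50, of which rank 4 had counts in CD23+ B cells, and those against LLPC to ranks 2, 9, 18, 24 and 33, of which rank 2 had counts in LLPC. At the other end, ranks 93, 108, 126, 134 and 137 had the smallest changes against CD23+ B cells. Rank 134 had a fitted change of 0.49 ± 0.567 (SE) on the log2 scale, with an adjusted p = 0.551 by the edgeR test, and with ranks 92 and 108 it was 1 of the 3 not called.

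Against LLPC, 6 tested members had a fitted change at or under 0, none of them called. Rank 134 was lowest with a log2 fold change of -0.33 ± 0.582 SE, followed by ranks 131, 118, 41, 60 and 25. For rank 25 the ABC libraries of cKO held 3.85, 7.03 and 4.19 CPM and the LLPC libraries 3.38, 2.51 and 1.69, so on plain CPM the groups did not overlap, while the fitted change on TMM-scaled totals was -0.05 ± 0.460 SE (adjusted p = 0.945 by the edgeR test). This member had been chosen at 28.4 CPM in ABC WT against 2.03 in LLPC WT.

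When the rule was applied to the cKO libraries with high dsDNA in place of WT, 8550 features met the level limits and 92 of the 150 members (61.3%) were among the 150 highest scores. Of the members, 126 stayed within the limits and 24 had an ABC mean under 10 CPM. Their median score in cKO was 4.72 (quartiles 3.24 and 8.55, lowest 1.31, highest 46.4), against 0.979 over all features within the limits. Ranks 2 and 3 of the WT order took ranks 1 and 2 in cKO.

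The split by score showed the order of the ranks again in cKO. Ranks 1 to 50 had median folds of mean CPM of 43.2 over CD23+ B cells and 25.9 over LLPC, ranks 51 to 100 of 9.68 and 7.78, and the last 50 ranks of 5.03 and 5.78. Members whose higher other subset in WT was CD23+ B cells had median folds of 6.74 over CD23+ B cells and 14.5 over LLPC in cKO, and those whose higher other subset was LLPC had 21.4 and 5.60. The 24 members above 100 CPM in ABC WT were all called higher against both subsets, beside 19% and 24.9% of all tested features. Of the 53 members at 30 to 100 CPM, 53 were called higher against CD23+ B cells and 46 against LLPC. Of the 68 tested at 10 to 30 CPM, 65 and 50 were. The share called among all features of like level is not given.

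The second question is how the members differed between genotypes within ABC. The 150 members all passed the filter, and 12 were called higher and 6 lower in cKO with high dsDNA than in WT, which is 8% and 4% of them; over all 12714 tested features 0.543% were called higher and 0.59% lower. Members lay on both sides of 0, with 87 higher and 63 lower and a median log2 fold change of 0.12, beside -0.01 over all features. Without overlap between the groups, 29 members were above all WT libraries (6.17% of tested features) and 20 below (5.7%). The ABC WT levels of the members were selected high, and the part of that choice in these changes was not tested. The counts depended on single libraries: the 12 higher calls became 6 without WT replicate 1, 23 without WT replicate 2, 6 without cKO replicate 1 and 6 without cKO replicate 2. The 6 lower calls became 3 without WT replicate 1, 16 without WT replicate 2, 3 without WT replicate 3 and 2 without cKO replicate 1. The share of all features called with a library left out is not given.

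**Figure D4:**
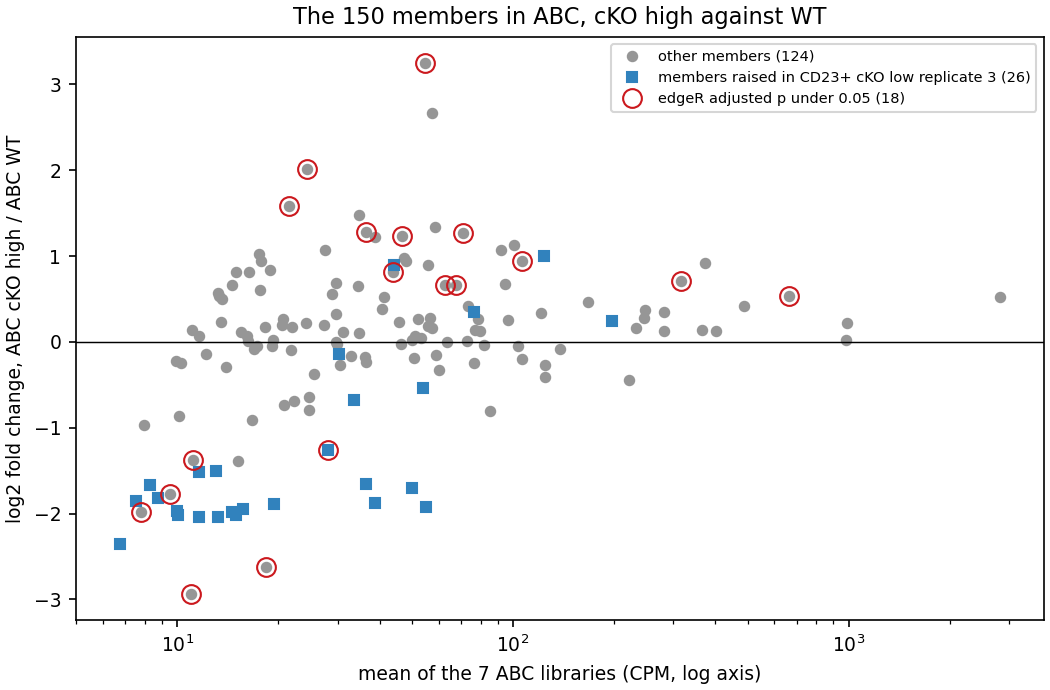
Log2 fold change of each member in ABC of cKO with high dsDNA against ABC of WT, against the mean CPM of the 7 ABC libraries on a log axis; circles mark members called at an adjusted p under 0.05, and squares mark the 26 members described further on. The 12 called higher run from 0.53 to 3.25 and the 6 called lower from -2.94 to -1.26.

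The member that rose furthest was MGP_BALBcJ_G0029714 (rank 121). It read 14.7, 3.69, 15.3 and 13.7 CPM in ABC WT and 121.5, 130.8 and 83.2 in ABC cKO, so each cKO library was several times the highest WT library. The means were 11.8 ± 5.48 (SD, n = 4) and 111.8 ± 25.2 (n = 3). The rise was 3.25 ± 0.464 (SE) on the log2 scale (adjusted p = 0.0364 by the edgeR test). Its call was retained under 4 of 12 alternatives, with adjusted p up to 0.186, and was lost without WT replicate 1, 3 or 4 and without any one cKO replicate. In CD23+ WT it ran from 0.475 to 4.73 CPM (median 1.73), against 2.65, 3.67 and 6.42 in CD23+ cKO with high dsDNA.

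MGP_BALBcJ_G0030739 (rank 80) was next by identifier. It held 14.1, 4.23, 14.9 and 9.51 CPM in ABC WT and 44.4, 47.8 and 35.6 in ABC cKO, again without overlap. The log2 fold change was 2.01 ± 0.364 SE (adjusted p = 0.0388 by the edgeR test), and 6 of 12 alternatives retained the call. In both members WT replicate 2 was the lowest library. Both were at most 4.73 CPM in every CD23+ WT library.

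The steadiest rises were smaller in size. Rank 45 went from 44.4 ± 2.42 CPM (SD, n = 4) in ABC WT to 106.5 ± 10.7 (n = 3) in ABC cKO, a log2 fold change of 1.27 (adjusted p = 0.000115 by the edgeR test). Rank 86 went from 11.5 ± 1.38 to 34.7 ± 5.71 CPM, a log2 fold change of 1.59. The other members called higher were ranks 11, 52, 58, 63, 66, 100, 106 and 113, with log2 fold changes from 0.53 to 1.28. Calls for ranks 45, 63 and 86 held under all 12 alternatives.

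Among the members that fell, MGP_BALBcJ_G0004705 (rank 131) fell in ABC and in both cKO groups of CD23+ B cells. Its ABC WT libraries held 20.8, 23.7, 14.9 and 10.8 CPM and its ABC cKO libraries 2.86, 1.87 and 1.71, so cKO stood at 12.2% of WT, a fitted change of -2.94 ± 0.346 (SE) on the log2 scale (adjusted p = 0.000776 by the edgeR test). CD23+ WT ranged from 3.81 to 6.06 CPM (median 4.80), cKO with low dsDNA read 0.571, 0.495 and 0.237 and cKO with high dsDNA 0.663, 0.506 and 0.802. Against the same 6 WT libraries, the log2 fold changes in CD23+ B cells were -3.46 (adjusted p = 0.000177 by edgeR) and -2.86 (adjusted p = 0.000534). In LLPC it went from 2.26 to 6.20 CPM in WT (median 3.74) to 2.30, 0.898 and 1.01 in cKO, which overlap, and the change of -1.23 ± 0.400 SE was not called (adjusted p = 0.751 by edgeR). The calls in ABC and CD23+ B cells held under every alternative.

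MGP_BALBcJ_G0027695 (rank 25) fell in ABC. It read 28.98, 25.4, 18.1 and 41.1 CPM in ABC WT and 3.85, 7.03 and 4.19 in ABC cKO, or 17.7% of WT, a fitted change of -2.62 ± 0.329 (SE) on the log2 scale (adjusted p = 0.00178 by the edgeR test). The call held under all 12 alternatives. In CD23+ B cells of cKO with high dsDNA the change against WT was -1.50 (adjusted p = 0.253 by edgeR), and in LLPC it was 0.62 (adjusted p = 0.751). The remaining members called lower were ranks 32, 65, 71 and 85, with log2 fold changes of -1.77, -1.37, -1.98 and -1.26.

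For 26 members most means in ABC were lower in cKO than in WT, although only 1 of them was called. These 26 were picked after their values had been seen, as those at least 2-fold higher (CPM + 1) in replicate 3 of CD23+ B cells of cKO with low dsDNA than in the mean of replicates 1 and 2, so no test is given. The size of the set rests on the pseudocount: 0.1 in place of 1 gave 32 members and 5 gave 6. The 26 are 17.3% of the members, against 1.39% of the 8625 features within the level limits, and 17 of them are in ranks 1 to 50. The members were chosen for low CD23+ levels and the 8625 features were not. Features of like CD23+ level were not compared, so the 2 shares are not on an equal footing. Their median level in ABC WT replicates 1 to 4 was 21.8, 10.7, 38.8 and 26.7 CPM, and in the ABC cKO replicates 5.55, 4.22 and 13.04. In CD23+ B cells of cKO with low dsDNA it was 1.28, 0.69 and 5.04 CPM, and of cKO with high dsDNA 0.13, 0.13 and 0.40.

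In CD23+ WT the median ran from 0.47 to 2.13 CPM, above all 3 CD23+ libraries of cKO with high dsDNA. In LLPC the groups overlapped, with medians of 0.75 to 2.60 CPM in WT and 1.38, 2.06 and 1.52 in cKO. In ABC, 22 of the 26 (84.6%) had a lower mean in cKO than in WT, against 44 of the other members (35.5%), and the median log2(CPM + 1) differences were -1.65 and 0.14. Of the 27 members at 50% or less of their ABC WT mean, 19 were among the 26, and the share of all features at that level is not given. The median of the 26 was 27.9% of WT, and the range was 17.96% to 200.2%. Of the 26, 13 lay below all WT libraries and 1 above, where 5.7% and 6.17% of all tested features did. Of the other members 7 lay below and 28 above. The member called was rank 85.

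**Figure D5:**
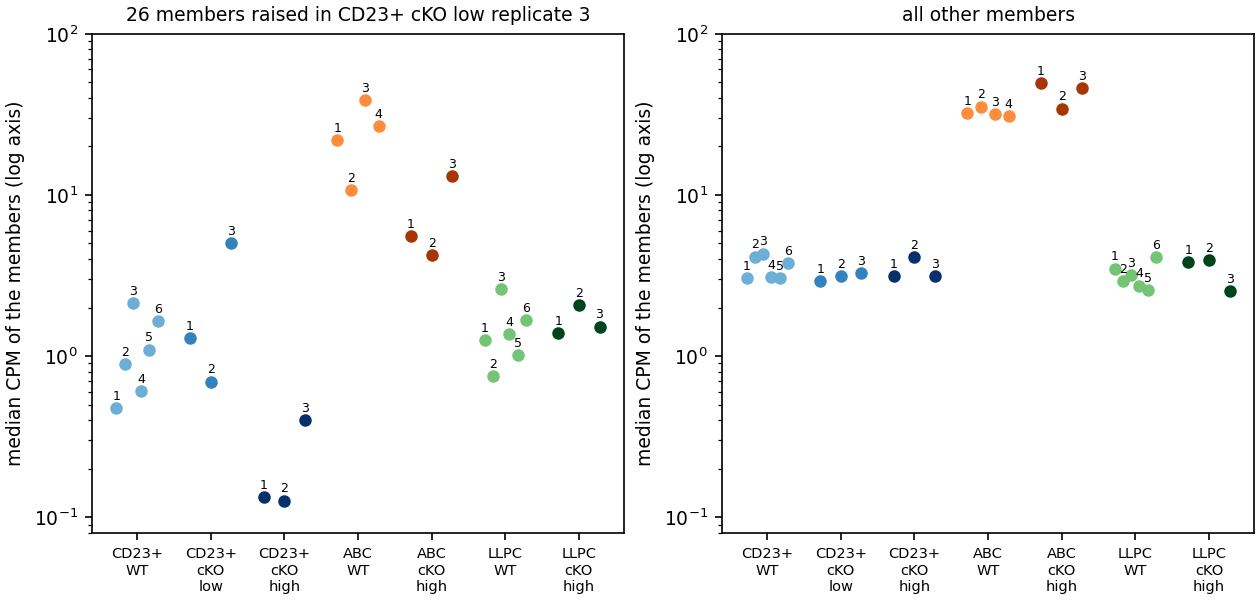
Median CPM of the 26 members chosen after their values were seen and of the other members, by library and group, on a log axis. Within CD23+ B cells of cKO with low dsDNA replicate 3 is the high library for the 26, and the ABC cKO libraries lie below the ABC WT libraries except for replicate 3, which is above WT replicate 2.

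These 26 also moved between WT libraries. For 22 of them ABC WT replicates 3 and 4 were both higher than replicate 2, against 38 of the other members. Of the 26, 20 had their highest CD23+ WT value in replicate 3, and of all 150 members 62 did. Among the 94 features outside the members that met the same criterion in CD23+ cKO replicate 3, 77.7% were lower in ABC cKO, with a median difference of -0.48, against 50.5% and -0.00 for the other features within the limits. Of those 94, however, 4 (4.26%) lay below all ABC WT libraries and 5 above, where 5.80% of the other features lay below. Leaving out any one ABC library kept the median difference of the 26 between -2.08 and -1.38. The counts behind the CD23+ values were small: a median of 6 reads over the 3 cKO libraries with high dsDNA. Whether cells of another type moved with these members was not tested, since no marker could be matched.

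In CD23+ B cells, where WT levels of the members were selected low, only rank 131 was called between genotypes by edgeR. Of 120 tested, 0 were called higher and 1 lower (rank 131) in cKO with high dsDNA against WT, where 0.391% and 0.0478% of 12542 tested features were called; 25 members and 1370 features had an unadjusted p under 0.05. In cKO with low dsDNA against WT, 0 were called higher and 1 lower (rank 131 again), where 0% and 0.0239% of features were called, and 11 members and 300 features had an unadjusted p under 0.05. Both use the same WT libraries. The members leaned to the lower side in the first (44 higher, 76 lower, median log2 fold change -0.13) and not in the second (64 and 56, median 0.03), where 48.2% and 48.5% of all tested features lay on the higher side.

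Between cKO mice with high and low dsDNA no library had chosen the members. In CD23+ B cells 0 of 120 were called higher and 0 lower by edgeR, where 0% of features were called in either direction. The smallest adjusted p was 0.349, with 22 members and 811 features at an unadjusted p under 0.05. DESeq2 called 0 members higher and 5 lower, and the share of all features it called is not given. The 2 members with the lowest p were rank 6, with a log2 fold change of -3.21 ± 0.755 SE, and rank 63, with 1.14 ± 0.273 SE. Of the tested members 49 lay on the higher side and 71 on the lower, and the median was -0.08.

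In LLPC 0 of 110 tested members were called higher and 0 lower in cKO with high dsDNA against WT, where 0% and 0.00852% of 11739 tested features were called; 17 members and 540 features had an unadjusted p under 0.05. Their fitted changes were more often above 0 (75 members) than below (35), with a median log2 fold change of 0.33, while 47.3% of all tested features lay above 0 and their median was -0.02. The WT levels of the members outside ABC were selected low, and the part of that choice in this lean was not tested. The lowest p belonged to rank 79, with a fitted change of 1.29 ± 0.266 (SE) on the log2 scale (adjusted p = 0.751 by edgeR).

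Whether the change between genotypes differed between subsets was tested over all 28 libraries. The WT values that chose the members enter both differences. A choice of high ABC and low other WT values by itself leans both differences to the lower side. The part of that choice in them was not tested. Against CD23+ B cells 95 members lay on the higher side and 55 on the lower, with a median of 0.28 beside 0.02 over all features. Against LLPC 64 lay on the higher side and 86 on the lower, with a median of -0.22 beside 0.04. For ABC against CD23+ B cells, 0 members had a change that was higher and 0 one that was lower (0% of 14123 features each way), with a smallest adjusted p of 0.224 by edgeR, and 21 members and 703 features had an unadjusted p under 0.05. By DESeq2, 2 members were called higher, and the share of all features it called is not given. For ABC against LLPC, 0 were higher and 1 lower, where 0% and 0.0354% of features were called. That member was rank 25, whose change was 3.18 lower on the log2 scale in ABC than in LLPC (-3.18 ± 0.579 SE, adjusted p = 0.0408 by edgeR). The libraries of 1 animal are treated as separate samples in this fit; with the animal as a block the change was -3.19 (adjusted p = 0.0304 by edgeR). The call held under 18 of 30 alternatives, with adjusted p up to 0.288, and was lost without replicate 1, 4 or 5 of CD23+ WT, 2 or 3 of CD23+ cKO with high dsDNA, 1, 2 or 4 of ABC WT, 1 or 3 of ABC cKO, and 1 or 2 of LLPC cKO. DESeq2 called 3 members lower for this difference, and edgeR without a filter 2. For both settings the share of all features called is not given.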

How the data were processed

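RNA of sorted B cell subsets had been made into libraries with a low-input total-RNA kit, per the labels' protocols. The authors deposited 1 file of raw read counts per feature for each of the 28 libraries; STAR 2.7.1a, FastQC and featureCounts are named in the submitters' processing notes, while the genome build and the strand setting were not stated there. Without a stated strand setting, overlapping features cannot be told apart, and near-identical copies may share reads. No feature length is used, so levels of different features are not corrected for length. This holds for the level classes, the summed shares and the medians over members.

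Groups were taken from the labels. Counts were fitted with edgeR 4.0.16 (R 4.3.3; TMM scaling, its expression filter by group, robust quasi-likelihood test, two-sided), with Benjamini-Hochberg adjustment over all tested features and calls at an adjusted p under 0.05. ABC and LLPC were each fitted alone between genotypes, the 12 CD23+ libraries together, the 9 cKO libraries with high dsDNA together, and the differences between subsets over all 28. The p-values measure the spread between these samples. The fits were tested on simulated counts. CPM are on plain totals. Alternatives were DESeq2 1.42.0, its size factors, no filter, a replicate block, leaving out each library, and other forms of the member rule.

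The animal numbers recur across subsets. In cKO with high dsDNA the replicate number marks the same animal in each subset; in WT it does not throughout (ABC replicates 3 and 4 share their animals with replicates 4 and 6 of CD23+ and LLPC), so the block over all 28 libraries used the animal number itself. Deviations from the group means correlated weakly, with a median of 0.0564 (9 pairs, lowest 0.0292) within animals and -0.0303 (18 pairs) between animals. The deviations are centred within each group and all pairs reuse the same 9 libraries, so the 2 medians are not independent. Between WT and cKO the numbers are names only. No 2 replicates agreed within sampling noise (chi-square per degree of freedom at least 3.73).

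The members and lists were chosen with earlier results of these data known. Members named are the 10 highest scores, the pair at the edge of the rule, the 10 largest called changes per genotype comparison and direction, and the 5 smallest and 5 largest changes per subset comparison in cKO; by identifier, the 2 highest and 2 lowest called in ABC with a mean of at least 5 CPM and no overlap. Outside that rule, and after their values were seen, the text names ranks 58 and 100 (called higher in ABC), 6, 63 and 79 (lowest p in other comparisons), 25 among the lowest against LLPC, 92 (not called), 29, 31, 34, 40 and 49 (not tested), 96 and the members without counts.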

Additional observations from a re-analysis of the deposited data

Results flagged for a closer look

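The values below lay far from the other libraries of their group by Dixon's test at the 95% level. The 94 checks in WT groups covered 28 members named or called and summaries of the members by library, and 12 passed. Chance gives about 1 in 20, or 4.7, if values are normally distributed. That was not checked, and several values below lie near 0 CPM. In CD23+ WT, replicate 6, the library with counts in 29517 features, was high for rank 5 (0.942 CPM, others at most 0.0419), rank 9 (0.550, others at most 0.0838), rank 10 (1.02, others at most 0.336) and rank 80 (0.393, others at most 0.0419). Replicate 3 was high for rank 11 (5.38 CPM, others 2.44 to 3.40) and rank 106 (101.3, others 35.1 to 52.1). Replicate 1 was low for rank 63 (2.85 CPM, others 4.37 to 5.02), and replicate 2 was high for rank 121 (4.73, others 0.475 to 1.88).

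In LLPC WT, replicate 6 was high for rank 8 (9.38 CPM, others 0.922 to 3.17), rank 11 (5.03, others 2.41 to 3.12) and rank 63 (6.03, others 1.52 to 3.02). These CPM are on plain totals, and the most abundant features took less of this library (27.4%) than of the others (40.5% to 50.2%). The part of that in these values was not tested. In ABC WT, replicate 2 was low for rank 121 (3.69 CPM, others 13.7 to 15.3), the member with the largest rise in cKO.

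The genotype change of rank 25 differed between ABC and LLPC in the test of the difference itself, by -3.18 on the log2 scale. The WT values that chose this member, high in ABC and low in LLPC, enter the difference and lean it to the negative side. The part of that choice in the value was not tested. The call held under 18 of 30 alternatives and was lost under 12.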

How the results depend on the processing

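The genotype counts in ABC moved with the filter, the tool and the block. For the alternatives below, the share of all features called is not given, so the changed counts cannot be set against it. The 12 members called higher in ABC cKO became 24 with DESeq2, 27 without a filter and 5 with the replicate block; the 6 called lower became 23, 25 and 13. All 18 called members were among the 47 called by DESeq2, and 5 of them among the 18 called under the block. Leaving out 1 library gave 6 to 23 higher and 2 to 16 lower. In CD23+ cKO with high dsDNA against WT, no filter gave 1 higher, and the 1 lower became 2 with DESeq2, 10 without a filter and 1 to 2 with a library left out. Against low dsDNA, the 0 lower became 5 with DESeq2, 12 without a filter and 2 with the block. For the difference of ABC from CD23+ B cells, DESeq2 called 2 higher; for that from LLPC, the 1 lower became 3 with DESeq2, 2 without a filter and 0 to 2 with a library left out. The block left the subset counts in cKO at 141 and 119 higher, and there the same animals are paired; between genotypes the number is a name only.

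Of the 150 members, 125 were chosen again with TMM-scaled totals, 137 to 145 with other pseudocounts, 130 to 149 with a library left out, and 77 with a lower limit of 30 CPM. The rule in cKO shared 86 to 94 with a library left out. Pseudocounts of 0.1 and 5 made the 26 members 32 and 6; these alternatives, and the TMM-scaled counts of members without overlap, were chosen after seeing the data. No called member changed direction under the alternatives run; 5 members went from above to below the LLPC mean in cKO with TMM-scaled totals. Depth limits members under 1 CPM outside ABC, where a library holds a few reads.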
